A study of Mus musculus with 4 samples.

Results

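The genes described here are 10 transcripts that neutrophils are known for, namely the alarmins *S100a8* and *S100a9*, the granule genes *Lcn2*, *Ngp*, *Mmp8* and *Mmp9*, and the genes *Retnlg*, *Wfdc21*, *Stfa2l1* and *G0s2*. They were chosen by symbol, as 10 of the 21739 gene symbols that the 4 matrices list together. The study treated full-thickness wounds of mouse skin with exosomes that mesenchymal stem cells of the human umbilical cord release (hucMSC-Exosomes) and sequenced single cells of the periwound skin 7 days later. All mice were of the C57/BL6j strain, were 6 weeks old and carried a wound of 8 mm. The hucMSC-Exosomes group received repeated injections around the wound with 100 µg of exosomes per injection and the control group received phosphate-buffered saline, and each group holds 2 libraries of 1 mouse each, called Control 1, Control 2, hucMSC-Exo 1 and hucMSC-Exo 2. Values are numbers of unique molecular identifiers (UMIs), each standing for 1 captured RNA molecule, and CPM scales the UMIs of a gene to a total of 1000000 UMIs in the cells named.

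Neutrophils make their granules in an order while they mature in the bone marrow. Primary granules with myeloperoxidase come before secondary granules with lactoferrin, lipocalin 2 and collagenase, which come before tertiary granules with gelatinase. Most granule transcripts are switched off in mature cells, whereas *S100a8* and *S100a9* encode calcium-binding proteins of the cytosol that pair as calprotectin and act as alarmins, which are signals of damage, once they leave the cell. In a healing wound, neutrophils are early arrivals that kill microbes and clear debris.

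The sequences in front of 4 of the genes are shown because transcripts of a cell type are often read together with the binding motifs of that lineage. Each run is the 250 bases before the start of the gene, from RefSeq on GRCm38.p6, read 5′ to 3′ on the strand of the gene. Capitals mark every match, on either strand, to the core letters TTGCNNAA of the C/EBP family or to the core letters GAGGAA of the ETS family, both of which act in myeloid cells. *S100a9* lies at chr3:90695722-90695971 on the minus strand, *Retnlg* at chr16:48872358-48872607 on the plus strand, *Mmp8* at chr9:7558179-7558428 on the plus strand and *Stfa2l1* at chr16:36156561-36156810 on the plus strand.
S100a9: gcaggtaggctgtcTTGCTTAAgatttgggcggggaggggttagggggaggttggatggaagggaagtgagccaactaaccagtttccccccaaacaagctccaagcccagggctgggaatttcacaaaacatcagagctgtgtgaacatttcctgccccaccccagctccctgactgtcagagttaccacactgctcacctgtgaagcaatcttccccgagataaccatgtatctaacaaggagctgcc
Retnlg: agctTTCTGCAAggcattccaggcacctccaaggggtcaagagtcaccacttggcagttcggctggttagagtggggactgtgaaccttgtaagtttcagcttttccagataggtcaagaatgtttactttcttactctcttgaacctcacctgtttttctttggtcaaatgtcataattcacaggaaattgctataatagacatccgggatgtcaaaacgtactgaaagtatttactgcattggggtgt
Mmp8: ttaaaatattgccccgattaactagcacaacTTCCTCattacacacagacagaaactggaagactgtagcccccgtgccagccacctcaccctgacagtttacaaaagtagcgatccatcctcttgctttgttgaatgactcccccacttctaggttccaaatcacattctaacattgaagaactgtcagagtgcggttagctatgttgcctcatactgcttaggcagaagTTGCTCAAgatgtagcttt
Stfa2l1: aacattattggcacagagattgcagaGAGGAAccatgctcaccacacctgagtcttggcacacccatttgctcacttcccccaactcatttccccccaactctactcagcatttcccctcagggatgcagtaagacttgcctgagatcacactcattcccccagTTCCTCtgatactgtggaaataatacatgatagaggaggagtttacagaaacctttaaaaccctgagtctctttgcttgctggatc

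Of the 10 genes, 8 had an entry in the table of promoters, and *Wfdc21* and *Mmp9* had none. The C/EBP letters stood in 5 of these 8 sequences, those of *S100a9*, *Lcn2*, *Retnlg*, *Ngp* and *Mmp8*, and in 9.56% of the 32851 promoter sequences of the same length in the table. The ETS letters stood in 4 of the 8, those of *S100a8*, *Lcn2*, *Mmp8* and *Stfa2l1*, and in 23.3% of all promoters. The TATA box letters TATAAA stood in that of *S100a8* only and in 12.4% of all promoters. A match of letters is a description of the sequence and does not show that a factor binds there. In the GENCODE M21 annotation of GRCm38, *S100a8* lies at chr3:90668978-90670035 on the plus strand and *S100a9* at chr3:90692632-90695721 on the minus strand, 22596 bases apart. *Lcn2* (chr2:32384633-32388252) and *Mmp9* (chr2:164940780-164955850) share chromosome 2, *Ngp* (chr9:110419747-110423012) and *Mmp8* (chr9:7558456-7568485) share chromosome 9, and *Retnlg* (chr16:48872621-48874496) and *Stfa2l1* (chr16:36156811-36161953) share chromosome 16. *Wfdc21* lies at chr11:83746940-83752642 and *G0s2* at chr1:193272161-193273217.

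Several facts of the series stand before the results. Groups were read from the sample titles. The matrix file names carry the letter c for Control 1 and hucMSC-Exo 1 and t for Control 2 and hucMSC-Exo 2. Each treatment direction below holds only if the titles are right. The study reported more neutrophils and more macrophages in the hucMSC-Exosomes group. The gate below found 37, 295, 64 and 467 neutrophils and 109, 325, 141 and 184 macrophages, Control libraries first. In both classes each library with the letter t held more cells than each library with the letter c. By title the groups overlapped in both classes. Which labels are right was not tested. Tissue and source fields name parts of the gut, while the cell type field and the protocol name skin. The libraries held 1098 to 2422 cells, fewer than the study states, and after its limits of 200 to 3000 detected genes and 10% mitochondrial UMIs 952, 2074, 1416 and 2001 cells with 4779405 to 11243740 UMIs were left. Before these limits *Ptprc*, by which the study set immune cells apart, was found in 81.5% to 87.7% of the cells of a library. Shares of kept cells below need not be shares of all periwound skin cells. Any pair of libraries shared 0 to 2 cell barcodes. Each matrix lists genes without a count in its cells and leaves others out, and the study dropped genes found in fewer than 3 cells. *Ngp* is listed for both hucMSC-Exo libraries but for neither Control library, so its level there is taken as 0 and was not measured.

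Cells were named by a marker gate that used none of the 10 genes. A cell was called a neutrophil, monocyte, macrophage, T cell or another class where at least 3 of 8 markers of that class were detected and every other class had at least 2 fewer. In the order of libraries given above, which is kept throughout, this gave 37, 295, 64 and 467 neutrophils, which were 3.89%, 14.2%, 4.52% and 23.3% of the kept cells. Of these 863 neutrophils, 20 met the gate with exactly 3 markers and 200 with the smallest allowed lead. *Hdc*, which makes histamine, was found in 94.6% to 97.3% of them and the receptor gene *Csf3r* in 76.6% to 86.9%. The classical surface marker *Ly6g* was found in 0%, 7.80%, 0% and 5.57%, so the name rests on the other markers. Keratin and other keratinocyte markers were spread over all classes, with at least 1 in 91.0% of neutrophils and in 95.6% of T cells, and 271 cells led by neutrophil markers stayed ungated. Median depth was 1882 to 2186 UMIs in neutrophils, 3367.5 to 4372 in T cells, 6511 to 7600.5 in monocytes and 6572 to 8465 in macrophages.

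The first question was which cells carried these transcripts. All 9 genes that could be tested were higher in neutrophils than in T cells, and all 9 were higher in neutrophils than in monocytes. *Ngp* had too few UMIs to be tested. The 9 neutrophil–T cell differences, on the log2 scale, had a median of 9.57, against -0.72 over all 7997 genes tested, of which 67.9% were called, 21.3% higher and 46.6% lower in neutrophils (edgeR's quasi-likelihood test with the library as a block, Benjamini-Hochberg adjustment). Against monocytes the median was 8.00, against -0.08 over 4371 genes, of which 58.2% were called, 27.5% higher and 30.7% lower in neutrophils. The calls against T cells held under every alternative tried, as did those against monocytes apart from that of *Mmp8*.

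*S100a8* stood at 24598, 43259, 51361 and 51321 CPM in the neutrophils of the 4 libraries, the Control libraries first. Monocytes had 28.1, 91.6, 376 and 75.6 CPM, macrophages 22.4, 46.2, 27.4 and 66.5 CPM, and T cells 5.95, 79.0, 60.8 and 26.6 CPM. The lowest neutrophil value lay far above the highest value of the other classes, and the log2 difference was 10.52 ± 0.30 (SE) from T cells (adjusted p = 1.29e-33) and 8.86 ± 0.36 from monocytes (adjusted p = 6.16e-11). After each cell was thinned to 1000 UMIs, which removes differences in depth, *S100a8* was found in 97.1%, 97.2%, 100% and 98.0% of neutrophils. T cells, which should lack the gene, had it in 1.04%, 5.21%, 3.60% and 3.90%.

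*S100a9*, the partner of *S100a8* in calprotectin, had 29424, 67907, 79364 and 73246 CPM in neutrophils. In monocytes it had 0, 52.9, 244 and 65.1 CPM, in macrophages 8.26, 27.9, 21.3 and 78.5 CPM, and in T cells 4.76, 129.7, 63.8 and 34.7 CPM. Its log2 difference was 10.78 ± 0.32 from T cells (adjusted p = 1.72e-33) and 10.05 ± 0.41 from monocytes (adjusted p = 6.16e-11). Control 1 was the lowest library for both alarmins in neutrophils, and the other 3 lay close together.

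**Figure D1:**
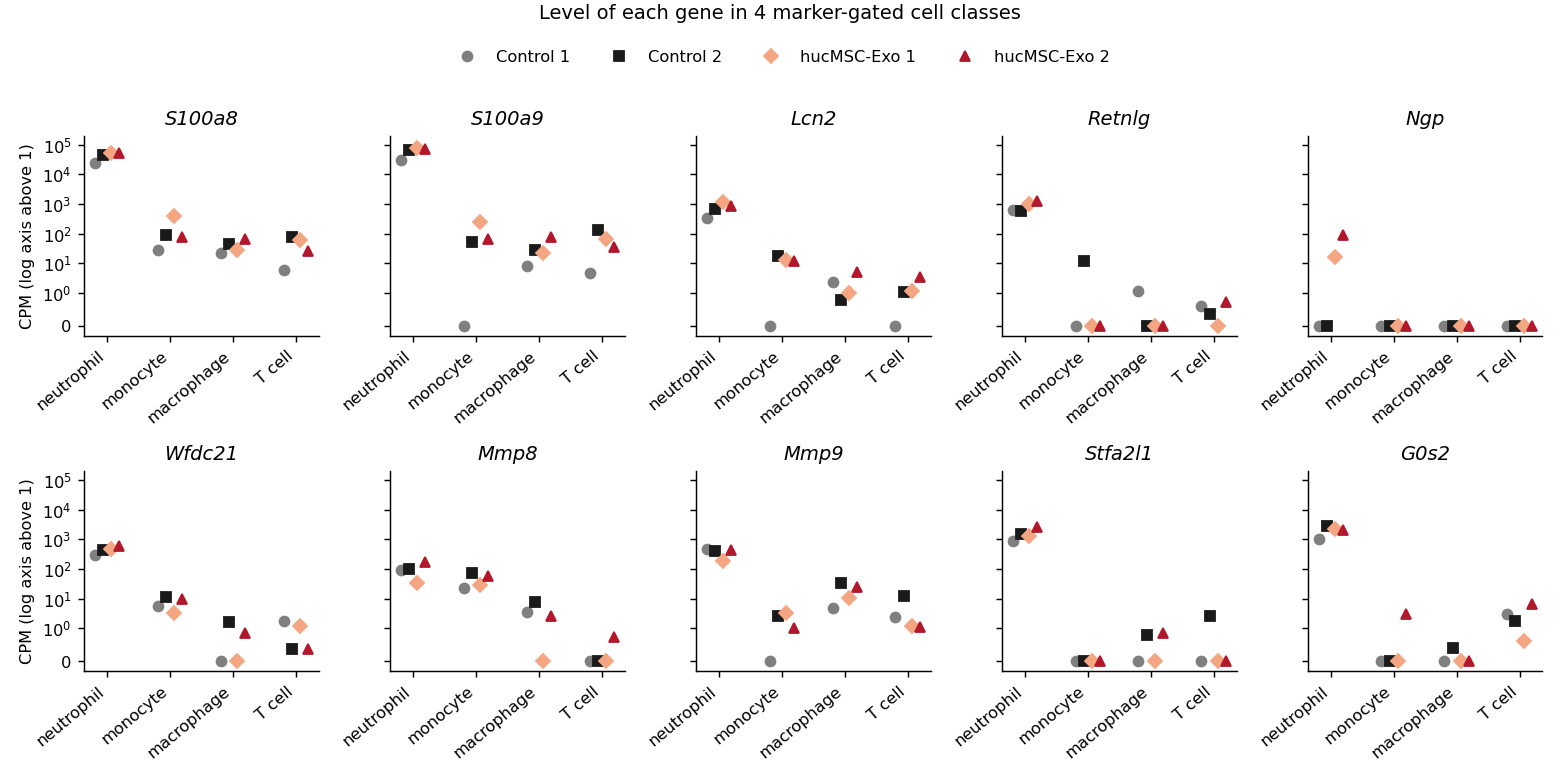
Level of each gene in neutrophil-, monocyte-, macrophage- and T cell-gated cells, as CPM on a log axis that is linear below 1, with 1 point for each of the 4 libraries. The neutrophil points lie highest for every gene except *Mmp8*, where the neutrophil value of hucMSC-Exo 1 (32.5 CPM) lies within the range of the monocytes, and *Ngp*, which has 0 in both Control libraries because it is not listed there.

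*Lcn2* encodes lipocalin 2, a secondary granule protein that withholds iron from bacteria. Its neutrophil levels were 337, 695, 1137 and 831 CPM, and no library exceeded 18.1 CPM in monocytes, 5.12 in macrophages or 3.32 in T cells. Neutrophils were higher by 9.17 ± 0.36 than T cells and by 6.21 ± 0.28 than monocytes on the log2 scale. In thinned neutrophils *Lcn2* was found in 14.3%, 35.9%, 36.5% and 29.5% of cells, and in at most 0.532% of T cells. Thus, most neutrophils gave no *Lcn2* UMI at this depth.

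*Ngp* encodes neutrophilic granule protein, a relative of the cathelicidins that is made during granule formation. It had 2 UMIs in 2 neutrophils of hucMSC-Exo 1 and 96 UMIs in 6 of the 467 neutrophils of hucMSC-Exo 2. Of these 96 UMIs, 91 (94.8%) came from 1 cell, without which the library stood at 4.70 in place of 90.0 CPM. No UMI was found in monocytes, macrophages or T cells. A limit of 3 counts was set for each class, with all 4 libraries summed. The neutrophil level was then 37.1-fold that of monocytes, 92.2-fold that of macrophages and 147-fold that of T cells. These sums include the Control libraries, which do not list *Ngp*, so the ratios are not lower limits. The limit of 3 counts covers counting error only, and the ratios rest on the same cell.

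That cell was unlike the other neutrophils of its library in other granule genes as well. Among its 4207 UMIs it held 40 of *Ltf*, the lactoferrin gene, and 11 of *Camp*, the cathelicidin gene, whereas the other neutrophils of hucMSC-Exo 2 had 16.9 and 0.941 CPM of them. It also held 58 UMIs of *Lcn2*, 77 of *Retnlg*, 22 of *Wfdc21*, 5 of *Mmp8* and 6 of *Cd177*, a surface partner of proteinase 3, each with a median of 0 in the others. *S100a8* gave 623 and *S100a9* gave 688 of its UMIs, and *Stfa2l1* gave none. The cell was singled out after the values were seen and it has no replicate.

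*Mmp8*, the neutrophil collagenase of secondary granules, was the member with the smallest difference between neutrophils and monocytes. Neutrophils had 90.8, 103, 32.5 and 171 CPM, monocytes had 22.5, 74.9, 28.5 and 56.7 CPM, and the neutrophil value was the higher one within each library. In hucMSC-Exo 1 this rested on 4 neutrophil and 9 monocyte UMIs, and in Control 1 on 7 and 4. Pooled over the libraries, the neutrophil level was 2.41-fold that of monocytes (exact 95% interval 1.94 to 3.01, counting error only). The fitted log2 difference was 1.35 ± 0.27 with an adjusted p of 4.42e-04, and without hucMSC-Exo 2 it was 0.93 with an adjusted p of 0.0570. Monocytes were in turn higher than macrophages, which had 3.54, 7.57, 0 and 2.56 CPM, by 3.73 ± 0.37 (adjusted p = 2.62e-07).

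Between monocytes and T cells the *Mmp8* difference was 7.52 ± 0.51 (adjusted p = 6.75e-09). T cells gave 2 *Mmp8* UMIs in all, both in hucMSC-Exo 2. The monocyte signal was spread over cells, with a UMI in 3, 26, 6 and 35 of the 28, 108, 50 and 143 monocytes, and with no more than 9.26% of the UMIs from 1 cell in Control 2 and hucMSC-Exo 2. Beside 125 UMIs of *Mmp8*, the same monocytes held 267 of *S100a8*, 180 of *S100a9*, 29 of *Lcn2*, 20 of *Wfdc21*, 9 of *Retnlg*, 4 of *Mmp9*, 3 of *G0s2* and 0 of *Stfa2l1* and *Ngp*. All 9 of *Retnlg* came from 1 cell of Control 2. Monocytes had a median of 2 of the 8 neutrophil gate markers, and 83.9% of them had at least 1. The part of these markers in the *Mmp8* result was not tested.

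*Mmp9* encodes gelatinase B, the defining enzyme of tertiary granules. It had 467, 414, 187 and 423 CPM in neutrophils and was found in 31.4%, 34.1%, 19.0% and 32.8% of them after thinning. Macrophages were next among the 4 classes plotted, with 4.72, 33.5, 10.2 and 25.6 CPM, followed by T cells with 2.38, 12.3, 1.20 and 1.11 CPM and monocytes with 0, 2.58, 3.16 and 1.05 CPM. Neutrophils were higher by 6.82 ± 0.36 than T cells and by 7.84 ± 0.36 than monocytes on the log2 scale. The 144 cells of the keratinocyte gate had 0, 38.5, 4.16 and 45.2 CPM of *Mmp9*, on 12 UMIs.

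Macrophages exceeded T cells in *Mmp9* by 2.44 ± 0.44 on the log2 scale (adjusted p = 5.69e-04), where 57.2% of 8833 genes were called, 28.7% higher and 28.5% lower in macrophages. Without Control 2, which held 84 of the 128 macrophage UMIs, *Mmp9* had too few UMIs to be tested. The macrophages with a UMI of *Ctsk*, the cathepsin K gene that osteoclasts use and that belongs to the macrophage gate, had 0, 58.9, 23.3 and 62.3 CPM of *Mmp9*, and those without it had 5.05, 27.0, 8.23 and 17.6 CPM. The *Ctsk*-bearing cells were thus higher in 3 of 4 libraries, over 7, 60, 17 and 30 cells. In hucMSC-Exo 1 their value rests on 3 UMIs, found in 5.88% of the 17 cells.

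*Retnlg* encodes resistin-like gamma, a small secreted protein of bone marrow and granulocytes. Its neutrophil levels were 623, 572, 1015 and 1299 CPM, and the hucMSC-Exo libraries lay above both Control libraries. It was found in 22.9%, 17.2%, 23.8% and 31.3% of thinned neutrophils, against at most 0.261% of T cells. The log2 difference from T cells was 10.92 ± 0.39, with 4 UMIs in all T cells together.

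*Wfdc21*, a secreted protein with the whey acidic protein fold of many protease inhibitors, had 285, 451, 455 and 588 CPM in neutrophils. Monocytes had 5.63, 11.6, 3.16 and 9.45 CPM, and no other class of the 4 exceeded 1.79 CPM. Neutrophils were higher by 9.24 ± 0.40 than T cells and by 6.05 ± 0.28 than monocytes on the log2 scale, the smallest difference from monocytes after that of *Mmp8*.

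*Stfa2l1* belongs to the stefins, cytosolic inhibitors of cathepsins, and its near copies *Stfa1*, *Stfa2* and *Stfa3* may share reads with it, so its level is uncertain. It had 882, 1465, 1340.1 and 2636 CPM in neutrophils. Monocytes had 0 UMIs, which puts neutrophils 1535-fold higher under the limit of 3 counts over all monocytes. The exact 95% interval of this ratio starts at 1248. Macrophages had 3 UMIs and T cells 7, all of the latter in 1 cell of Control 2, and the pooled ratio over macrophages was 3812 (exact 95% interval 1303 to 18490). *Stfa1* stood at 519, 297, 106 and 518 CPM in the same neutrophils but also at 36.9, 55.1, 24.7 and 23.6 CPM in T cells.

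*G0s2* encodes an inhibitor of adipose triglyceride lipase, the enzyme that opens lipid droplets. Neutrophils had 1025, 2749, 2152 and 1988 CPM and carried it in 34.3%, 68.6%, 69.8% and 53.2% of thinned cells. Macrophages gave 1 UMI, monocytes 3 and T cells 29 in all. The log2 difference was 9.57 ± 0.36 from T cells and 10.73 ± 0.39 from monocytes. As for the alarmins, Control 1 was the lowest library.

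The second way to read the same data was to ask where all UMIs of a gene lay. With the full gate, 84.5% of *S100a8* UMIs, 85.2% of *S100a9*, 87.1% of *Stfa2l1*, 85.9% of *Retnlg*, 82.6% of *G0s2*, 81.9% of *Wfdc21* and 75.8% of *Lcn2* UMIs were in neutrophils. Most of the rest was in ungated cells, and the 271 of these that were led by neutrophil markers held 83.6% of the ungated *S100a8* UMIs. A gate without the keratinocyte and fibroblast lists, added after the data were seen, put 97.0% of *S100a8*, 97.3% of *S100a9*, 98.6% of *Stfa2l1* and 94.4% of *Lcn2* UMIs in neutrophils. The share of a gene in a class depends on how many cells the class holds.

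The protease genes *Mmp8* and *Mmp9* were the exceptions. With the full gate neutrophils held 51.5% of *Mmp8* UMIs and monocytes 24.3%, and with the shorter gate 59.0% and 28.2%. For *Mmp9* the neutrophil share was 58.0% and the macrophage share 9.35%, and with the shorter gate 68.2% and 21.3%. These were the only members of the 10 with under 90% of their UMIs in neutrophils under the shorter gate.

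**Figure D2:**
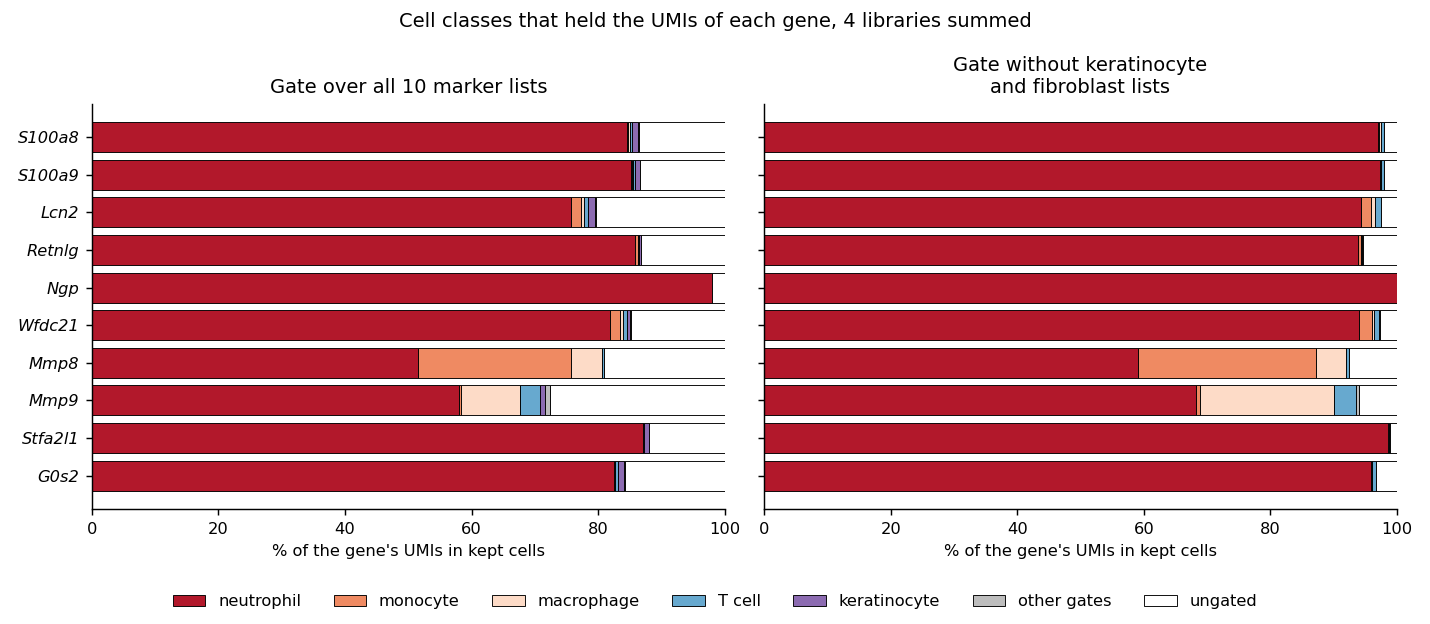
Share of the UMIs of each gene held by each cell class, in percent of the UMIs in kept cells with the 4 libraries summed, under the gate over 10 marker lists (left) and under the gate without the keratinocyte and fibroblast lists (right). Neutrophils hold most of every bar, at 97.0% for *S100a8* on the right, while *Mmp8* has a monocyte part of 28.2% and *Mmp9* a macrophage part of 21.3%.

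Outside neutrophils the alarmins were low but measurable. Monocytes exceeded T cells in *S100a8* by 1.76 ± 0.35 on the log2 scale (adjusted p = 5.06e-04), where 53.6% of 7953 genes were called, 22.9% higher and 30.7% lower in monocytes. They exceeded macrophages by 1.54 ± 0.38 (adjusted p = 0.00453), where 28.5% of 6370 genes were called, 13.7% higher and 14.9% lower, and this call was lost with DESeq2. Without hucMSC-Exo 1 the difference from macrophages was 0.70 with an adjusted p of 0.0280. In hucMSC-Exo 1, 108 of the 119 monocyte UMIs of *S100a8* came from 1 cell, and the level without that cell was 35.5 CPM in place of 376.

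For *S100a9* the difference between monocytes and T cells did not pass the test, at 0.75 ± 0.44 (adjusted p = 0.164), and without Control 2 it was 1.71 with an adjusted p of 0.00131. In Control 2, 1 T cell held 239 of the 358 T cell UMIs of *S100a9*. Between macrophages and T cells neither alarmin passed the test, with *S100a8* at 0.32 ± 0.40 (adjusted p = 0.515) and *S100a9* at -0.49 ± 0.50 (adjusted p = 0.425). Without hucMSC-Exo 2, *S100a9* was lower in macrophages, at -1.32 with an adjusted p of 0.0212, and with Leiden clusters *S100a8* was higher, at 1.04 with an adjusted p of 0.0163. Against macrophages the monocyte level of *S100a9* was higher by 1.24 ± 0.41 (adjusted p = 0.0298), a call that was lost with DESeq2, without the library block, without hucMSC-Exo 1 and under 3 other ways to define the cells.

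Neutrophils had 1.20, 1.57, 1.55 and 1.43 UMIs of *S100a9* per UMI of *S100a8*. The ratio was 0.80, 1.64, 1.05 and 1.31 in T cells, in monocytes it was 0, 0.577, 0.647 and 0.861 and in macrophages 0.368, 0.603, 0.778 and 1.18. Monocytes and macrophages were below the neutrophils of the same library in all 4 libraries, on 5 to 119 *S100a8* UMIs in a monocyte sum, and T cells were below them in 3 of 4. In Control 2, where T cells were above neutrophils, 239 of their 358 *S100a9* UMIs came from 1 cell. The part of free RNA in these values was not tested.

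Cells of the keratinocyte gate, another known source of both alarmins in wounded skin, had 18.0, 1039, 283 and 7505 CPM of *S100a8*. This gate held 144 cells in all, of which 98 met it with the smallest allowed lead, and in each library 1 cell gave 44.8% to 66.7% of the *S100a8* UMIs of the gate. The gate also held 3 UMIs of *Stfa2l1* in Control 2 and 35 in hucMSC-Exo 2. No expression of the alarmins by keratinocytes was read from these values.

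The small gates held few of these transcripts. The 101 NK cells had 16.8, 54.8, 53.1 and 20.2 CPM of *S100a8* and the 106 type 2 innate lymphoid cells 59.4, 39.4, 24.0 and 10.9 CPM, which overlaps the range of T cells. Neither class gave a UMI of *Retnlg*, *Ngp*, *Wfdc21*, *Mmp8* or *Stfa2l1*. The 67 basophils or mast cells held 12 UMIs of *S100a8* in Control 2 and 1 in hucMSC-Exo 2, and 1 of *Wfdc21*. Dendritic cells and fibroblasts, with 13 and 18 cells, were too few to describe.

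Within neutrophils, *S100a8* and *S100a9* took up a large and variable part of the RNA. Together they were 5.40%, 11.1%, 13.1% and 12.5% of all neutrophil UMIs. The median cell had 3.94%, 9.61%, 10.9% and 10.5%, and the highest cell had 16.9%, 35.2%, 32.4% and 37.5%. The 10th and 90th percentiles of the cells were 1.15% and 9.19% in Control 1 and 1.89% and 22.4% in hucMSC-Exo 2. The 2 genes went together from cell to cell, with a Spearman correlation of 0.81, 0.88, 0.86 and 0.89 over the cells of a library, a description in which both points share the depth of the cell.

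**Figure D3:**
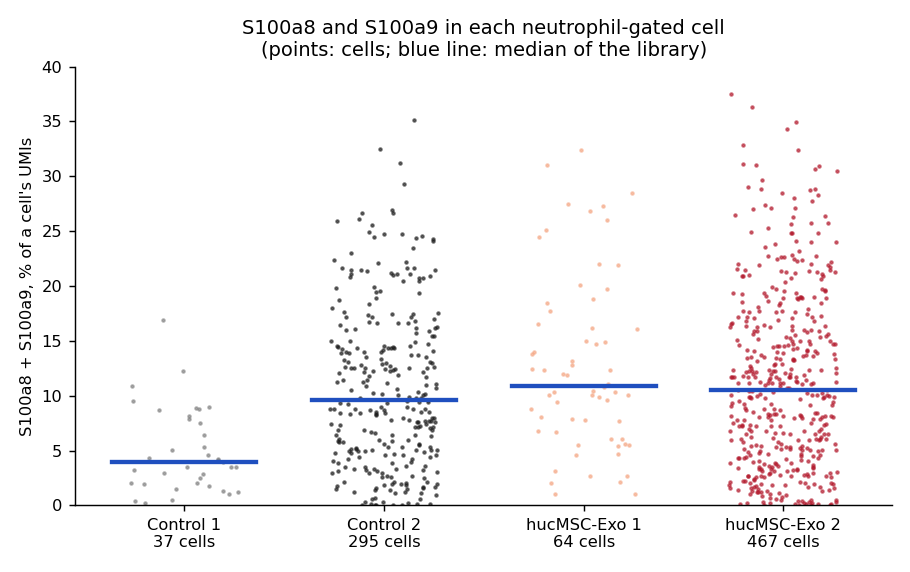
Sum of *S100a8* and *S100a9* UMIs as a percent of all UMIs of each neutrophil-gated cell, with 1 point per cell and a line at the median of each library. The medians are 3.94%, 9.61%, 10.9% and 10.5% for 37, 295, 64 and 467 cells, and every library but Control 1 has cells above 30%.

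The other members were each found in only some neutrophils, so their co-detection was compared with the product of their single shares in thinned cells. Over the 21 pairs of *Lcn2*, *Retnlg*, *Wfdc21*, *Mmp8*, *Mmp9*, *Stfa2l1* and *G0s2*, 10 pairs were found together more often than the product in both large libraries, Control 2 and hucMSC-Exo 2, and 1 pair less often. No pair had a 95% interval above 1 in both libraries. *Lcn2* and *Retnlg* were together in 24 and 52 cells, at 1.34 and 1.25 times the product. *Retnlg* and *Wfdc21* were together in 16 and 67 cells, at 1.15 and 1.55 times, and the interval of the latter was 1.22 to 1.93.

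*Mmp8* and *Mmp9*, the 2 granule proteases, were the pair below the product in both libraries, at 0.90 times in Control 2 and 0.69 times in hucMSC-Exo 2, on 4 and 13 cells. No pair had an interval below 1 in both libraries. Pairs below the product in both numbered 0 without thinning and 4 in cells thinned to 500 UMIs. *Stfa2l1* and *G0s2* were together at 1.02 times the product in both. A thinned neutrophil held on average 1.49, 2.31, 2.21 and 2.42 of these 7 genes in the 4 libraries.

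Neutrophils with a UMI of *Lcn2*, *Retnlg*, *Wfdc21* or *G0s2* had the higher median of alarmin RNA in every library. The median share of *S100a8* and *S100a9* was 6.80%, 12.8%, 13.1% and 14.3% in neutrophils with *Lcn2*, and 3.50%, 8.05%, 10.2% and 9.20% in those without it. With *Retnlg* the medians were 6.95%, 13.3%, 18.5% and 16.0%, and without it 3.50%, 8.70%, 10.3% and 8.45%. With *Wfdc21* they were 8.50%, 13.3%, 13.6% and 14.1%, and without it 3.50%, 8.20%, 10.4% and 9.10%. The direction was the same in 4 of 4 libraries for each of these 3 genes. In Control 1 it rested on 5 cells with *Lcn2*, 8 with *Retnlg* and 4 with *Wfdc21*. *G0s2* also had this direction in 4 of 4 libraries, with medians of 8.50%, 10.7%, 11.7% and 11.3% against 2.80%, 8.40%, 10.2% and 10.7%. *Stfa2l1* and *Mmp8* had it in 3 of 4. For *Mmp8*, Control 1 had 3 cells with the gene, and hucMSC-Exo 1, the exception, had 1.

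*Mmp9* went the other way in 3 of 4 libraries. Neutrophils with it had medians of 3.40%, 8.70%, 11.7% and 9.30%, and those without it 4.00%, 10.3%, 11.3% and 11.4%. All these cells were thinned to 1000 UMIs, and cells of 1 library are not replicates, so the direction per library is given without a test.

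The members were also compared between neutrophils with at least 3 of 8 activation genes in 1000 UMIs (*Ccl3*, *Ccl4*, *Tnf*, *Cd274*, *Icam1*, *Nfkbia*, *Bcl2a1b* and *Ptgs2*) and those with fewer. *Retnlg* was lower in the activated cells of every library, at 156, 420, 291 and 915 CPM against 1141, 692, 1348 and 1544 CPM. From these same data the study described a neutrophil subcluster by *Bcl2a1b* and *Ccl3* and the other subcluster by *Retnlg*. The *Retnlg* order is therefore not independent of that clustering. *S100a8* was lower too, at 24770.5, 38549, 36583 and 40760 CPM against 25134, 47034, 57992 and 57876 CPM, with nearly equal values in Control 1. *S100a9* had the same order in 4 of 4 libraries. *Mmp9* had the opposite order in 4 of 4 libraries, at 597, 468, 265 and 438 CPM in activated cells against 353, 364, 154 and 409 CPM. *G0s2* had no common order, at 934, 3129, 2093 and 2628 CPM in activated cells against 1033, 2476, 2128 and 1631 CPM.

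Division by 8 interferon-induced genes left 8, 23, 3 and 55 cells above the same limit, too few for a direction per library. UMIs of the genes that divide the cells and of the members add up to the same total in a cell, and these differences are given without a test.

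**Figure D4:**
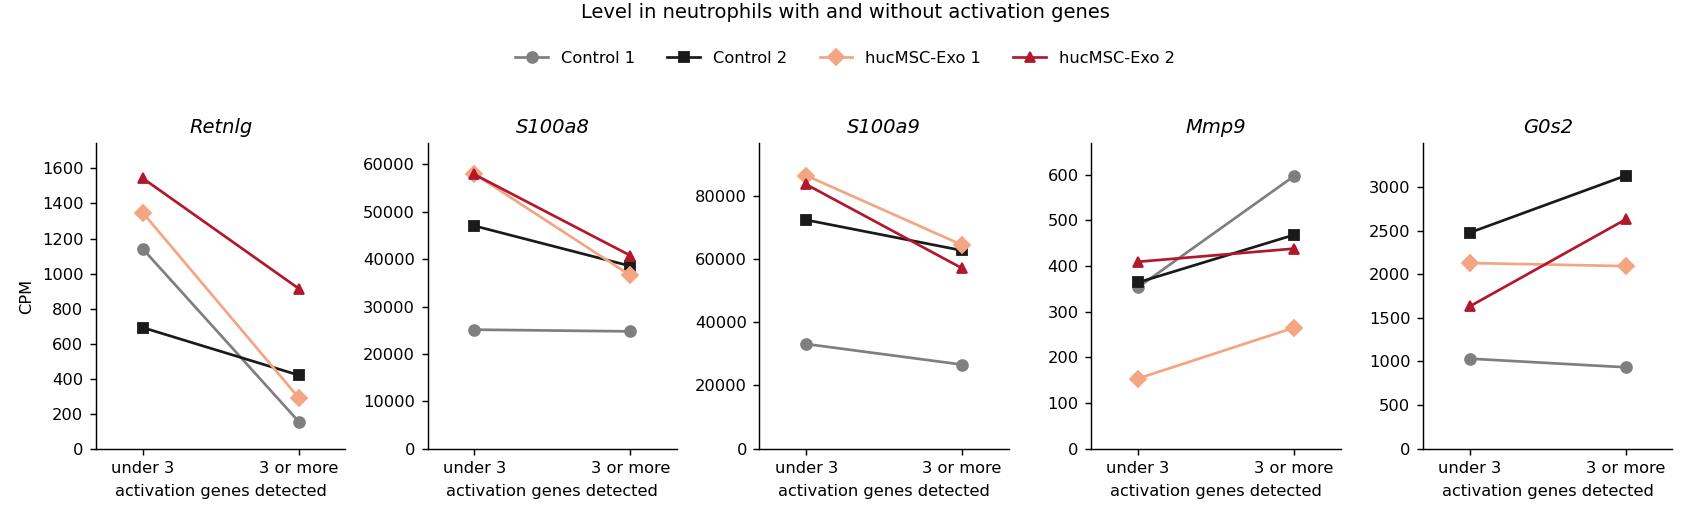
CPM of *Retnlg*, *S100a8*, *S100a9*, *Mmp9* and *G0s2* in neutrophils with under 3 and with 3 or more of 8 activation genes, with 1 line for each of the 4 libraries and axes that start at 0. *Retnlg* is lower on the right in every library, at 156 against 1141 CPM in Control 1 and at 915 against 1544 CPM in hucMSC-Exo 2, and *Mmp9* is higher on the right in every library.

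A list of 50 other granule, alarmin, inhibitor and receptor genes gave the setting. Of 33 that were tested between neutrophils and T cells, 26 were higher and 4 lower in neutrophils, and of 31 tested against monocytes 17 were higher and 8 lower. Over all genes tested, 21.3% were higher and 46.6% lower than in T cells, and 27.5% were higher and 30.7% lower than in monocytes. *Fpr1*, a receptor for bacterial formyl peptides, had 104, 319, 244 and 310.2 CPM in neutrophils and no UMI in T cells, which makes it at least 884-fold higher. *Slpi*, an inhibitor of neutrophil elastase, exceeded T cells by 10.25 ± 0.31 on the log2 scale, and *Hp*, the haptoglobin gene, had 727, 641, 585 and 949 CPM against at most 3.69 CPM in T cells. Against monocytes, the skin aspartic protease gene *Asprv1* had the largest difference of this list at 8.66 ± 0.40, followed by *Fpr1* at 5.67 ± 0.43, *Pglyrp1* at 5.48 ± 0.31 and *Mmp25* at 4.08 ± 0.49.

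*Mpo*, the myeloperoxidase gene of primary granules, gave 1 UMI in all 863 neutrophils. *Ltf* had 0, 27.7, 16.2 and 54.4 CPM, and *Camp* had 0, 0, 0 and 11.2 CPM. *Elane* is not listed in any library. Not every S100 gene was high in neutrophils: *S100a4* was lower than in T cells, by -5.13 ± 0.30, and so was *S100a10*, by -3.34 ± 0.25. *Serpinb1a*, an inhibitor of neutrophil proteases, was lower by -3.73 ± 0.40, and the nuclear alarmin gene *Hmgb1* by -1.02 ± 0.21. The oxidase subunit gene *Cybb* was lower than in monocytes, by -4.21 ± 0.29, as were *Cd36* (-5.29 ± 0.56) and *S100a4* (-4.82 ± 0.34).

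Over 26 sums of a library and a class with at least 20 cells, the gene most like *S100a8* among 10683 was *S100a9*, with a Spearman correlation of 0.908. *Trim30b* (0.873), *Il1r2* (0.848), *Slc25a20* (0.835) and *Igfbp6* (0.827) followed, and *Il1r2* is itself a gate marker. The sums of a library share its depth and free RNA, so these values are a description.

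The third question was whether the hucMSC-Exosomes group differed from the control group. No member passed the test in neutrophils, monocytes, macrophages or all kept cells, and neither did any other gene (0% called in each comparison). In neutrophils, 45 of 3538 genes had an unadjusted p under 0.05 with edgeR and 14 with DESeq2, and both called 0 after adjustment. In all kept cells, 182 of 12117 genes had an unadjusted p under 0.05 with edgeR and 115 with DESeq2, and both called 0. With 2 libraries against 2, an exact permutation test of 1 value cannot go below a two-sided p of 0.333.

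The levels of 5 of the 9 tested members did not overlap between the groups in neutrophils, and each of these was higher in the hucMSC-Exosomes group. With the libraries grouped by the letters of their file names, the levels of all 5 overlapped. Over all 3538 genes, 9.27% were higher without overlap and 18.6% lower without overlap. *S100a8* averaged 51341 ± 27.8 CPM (SD, n = 2) after hucMSC-Exosomes against 33928 ± 13196 CPM (SD, n = 2) in the control group, with an exact permutation p of 0.333. For *S100a9* the means were 76305 ± 4326 and 48666 ± 27212 CPM, and for *Lcn2* 984 ± 216 and 516 ± 253 CPM. *Retnlg* had 1157 ± 201 and 598 ± 35.7 CPM, and *Wfdc21* had 521 ± 93.9 and 368 ± 117 CPM. The *Wfdc21* levels of Control 2 and hucMSC-Exo 1, given above, were nearly equal, on 310 and 56 UMIs.

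Fitted over the 4 libraries, 8 of the 9 log2 differences were above 0, and their median was 0.73 against 0.02 over all genes. *Retnlg* had the largest at 1.12 ± 0.37 (unadjusted p = 0.0105, edgeR adjusted p = 0.999), followed by *Lcn2* at 1.00 ± 0.47, *Stfa2l1* at 0.86 ± 0.45, *S100a9* at 0.77 ± 0.51 and *S100a8* at 0.73 ± 0.46. *Mmp9* was the member below 0, at -0.32 ± 0.41. The adjusted p of each of the 9 was 0.999.

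These differences depended on the Control libraries. Without Control 1, the 37 neutrophils of which had the lowest alarmin level, *S100a8* was at 0.25 and *S100a9* at 0.18, whereas *Retnlg* stayed at 1.02 and *G0s2* turned to -0.41. Without Control 2, *Lcn2* was at 1.90 (edgeR adjusted p = 0.00210), *S100a9* at 1.75 (0.0137), *Stfa2l1* at 1.53 (0.00675), *S100a8* at 1.43 (0.0456) and *G0s2* at 1.38 (0.0173), which are 5 members among the 78 genes called of 2013 tested. The lone Control 1 was there assumed to vary like the hucMSC-Exosomes libraries. *Retnlg* moved least among the members over the 4 omissions, between 1.02 and 1.26. Over all alternatives its lowest difference was 0.63. *Ngp* was called without Control 1, without hucMSC-Exo 1 and without a filter on low counts, where the difference rests on the 1 cell described above and on Control libraries that do not list the gene.

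**Figure D5:**
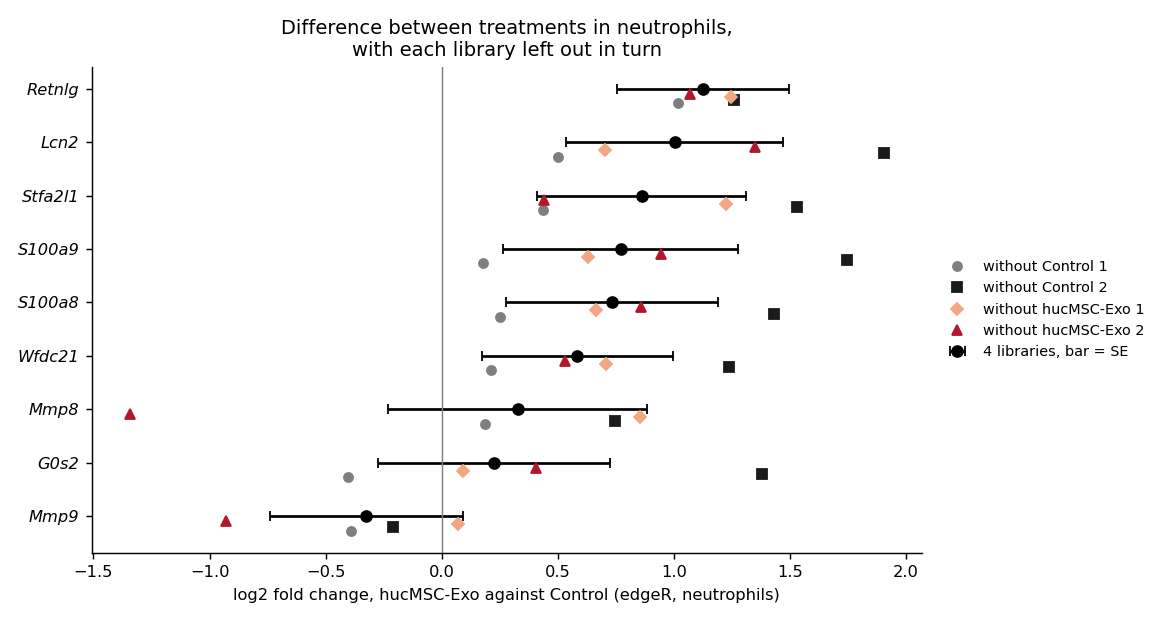
Fitted log2 fold change of each member between the hucMSC-Exosomes and control groups in neutrophils, with all 4 libraries (black circle, bar = SE) and with each library left out in turn (coloured symbols). Values above 0 are higher in the hucMSC-Exosomes group, and the values without Control 2 reach 1.90 for *Lcn2* while those without Control 1 fall to 0.18 for *S100a9*.

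In all kept cells *S100a8* had 534, 3116, 1447 and 6929 CPM and *S100a9* had 655, 4862, 2148 and 9817 CPM, in the same order as the neutrophil shares of 3.89%, 14.2%, 4.52% and 23.3%. *Wfdc21* (14.0, 33.8, 11.5 and 79.3 CPM) and *Mmp8* (5.23, 15.4, 4.64 and 31.7 CPM) did not have this order, since hucMSC-Exo 1 lay below Control 1. All 9 tested members had differences above 0, with a median of 1.12 against -0.01 over 12117 genes, and without hucMSC-Exo 2 only 2 of 9 did, with a median of -0.49. In these sums, more neutrophils and more RNA per neutrophil cannot be told apart.

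In monocytes the differences were 1.82 ± 0.78 for *S100a8* (unadjusted p = 0.0488), 2.18 ± 0.88 for *S100a9* (unadjusted p = 0.0398) and -0.20 ± 0.52 for *Mmp8*, each with an edgeR adjusted p of 1.00. Of 4882 genes, 64 had an unadjusted p under 0.05, and edgeR and DESeq2 called 0. The cell of hucMSC-Exo 1 with 108 *S100a8* UMIs stands behind the first value, and without likely doublets the difference was -0.08. For *S100a9*, 69 of the 77 monocyte UMIs of that library came from 1 cell, and the level without it was 25.8 CPM in place of 244. Its difference ran from 0.59 without likely doublets to 9.19 without Control 2, where the lone Control library is at 0 and the fitted value depends on the prior count. *S100a9* was called without Control 2, and both alarmins without hucMSC-Exo 2 and without a filter on low counts.

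In macrophages the differences were 1.33 ± 0.60 for *S100a9* (unadjusted p = 0.0538), 0.40 ± 0.44 for *S100a8* and -0.23 ± 0.68 for *Mmp9*, again with an edgeR adjusted p of 1.00. In hucMSC-Exo 2, 1 macrophage held 55 of the 92 *S100a9* UMIs, and the level without it was 31.6 CPM in place of 78.5. Without likely doublets the *S100a9* difference was 0.46. Of 7135 genes, 52 had an unadjusted p under 0.05, and both tools called 0. *Mmp9* turned to 1.88 without Control 2, and *S100a9* was called there as 1 of the 119 genes called among 7608 tested. Of the list of 50 other genes, 0 were called between the groups in any of the 4 comparisons.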

How the data were processed

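The authors captured cells of dissociated periwound skin with the 10x Genomics 3′ chemistry and counted UMIs with Cell Ranger 6.1.2 on mm10, per the submitters' processing notes. The deposited counts are raw, whole UMI counts with no scaling, and a transcript end is counted once whatever the length of the gene. They come as 1 matrix per library.

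Cells outside 200 to 3000 detected genes or above 10% mitochondrial UMIs were left out, which is the limit of the study. Classes were set by 10 lists of 8 markers (at least 3 detected, lead of at least 2), and no member was a marker. Shares of cells used cells thinned to 1000 UMIs (seed 0). No doublets were removed, and the top 10% by Scrublet score were left out in an alternative. UMIs were summed per library and class (at least 10 cells) and tested with edgeR 4.0.16 (R 4.3.3; TMM, filterByExpr, quasi-likelihood test, Benjamini-Hochberg adjustment over all genes tested, threshold 0.05), between classes with the library as a block and between groups without one. Single values were compared with exact two-sided permutation tests, and ratios have exact 95% intervals, which like the limit of 3 counts cover counting error only. The analysis used Python 3.11.15 with numpy 2.4.6, pandas 2.3.3, scipy 1.17.1, scanpy 1.11.5 and matplotlib 3.10.9, and limma 3.58.1 underlies edgeR. The fits were tested on simulated counts.

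Alternatives were DESeq2 1.42.0, no filter, other gates, Leiden clusters, no upper limit on genes, no doublets, a replicate block and leaving out each library. The members, marker lists and gene lists were chosen with earlier results of these data known. Named genes are the 10 members, up to 4 genes in each direction of the list of 50 others by size of a called difference, and the 5 most like *S100a8*. A division of neutrophils by a further gene list is not reported here. Columns of no known sample numbered 0.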

Additional observations from a re-analysis of the deposited data

Results flagged for a closer look

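*S100a9* in monocytes minus T cells had opposite signs in the groups, at -4.76 and -76.8 CPM in Control 1 and Control 2 and at 179.8 and 30.4 CPM in hucMSC-Exo 1 and hucMSC-Exo 2. The test of the difference between the groups gave 2.89 ± 0.55 on the log2 scale (edgeR interaction, unadjusted p = 6.81e-05, adjusted p = 0.542 over 7953 genes, of which 0 were called and 182 had an unadjusted p under 0.05). In hucMSC-Exo 1, 69 of 77 monocyte UMIs of *S100a9* came from 1 cell, and the level without it was 25.8 CPM. In Control 2, 239 of 358 T cell UMIs came from 1 cell.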

How the results depend on the processing

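The cause of the changes below was not tested. Each of the 9 members tested stayed higher in neutrophils than in T cells under all alternatives, and *Mmp8* alone lost its call against monocytes, without hucMSC-Exo 2. The members called higher went from 1 to 3 with Leiden clusters and 2 without a filter for macrophages against T cells (0 to 1 when a library was left out), from 3 to 1 with DESeq2 and 5 without a filter for monocytes against macrophages (2 to 4), and from 2 to 5 without a filter for monocytes against T cells. All genes called between monocytes and macrophages numbered 1818, against 1139 with DESeq2, 1015 without the library block and 977 to 1905 with a library left out. For neutrophils against monocytes, leaving out a library gave 1466 to 2961 calls against 2544, and for neutrophils against T cells 3234 to 5418 against 5433. Between the groups, 0 genes were called, against 6 in neutrophils, 14 in monocytes and 11 in macrophages without a filter. With a library left out, the calls were 0 to 2 in all cells, 2 to 78 in neutrophils, 0 to 34 in monocytes and 1 to 119 in macrophages.

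Over genes, deviations of same-numbered libraries from their group means had correlations of 0.19 in all cells, -0.04 in neutrophils, -0.15 in monocytes and -0.25 in macrophages. The replicate numbers coincide with the letters in the file names, so a block on one is a block on the other. Neutrophils were 3.89% and 4.52% of kept cells in Control 1 and hucMSC-Exo 1, and 14.2% and 23.3% in Control 2 and hucMSC-Exo 2. The replicate block gave 0 calls in all 4 group comparisons, with a median of 0.84 for the members in neutrophils, and turned *Mmp9* in macrophages to 0.077. Crossed pairs, added after the data were seen, gave 1 call in monocytes and 16 in macrophages, with no member among them.

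Signs also turned. The values that follow were not called with all 4 libraries. When a library was left out, the range in all cells was -0.32 to 3.16 for *S100a8*, -0.35 to 3.38 for *S100a9*, -0.49 to 2.38 for *Retnlg*, -1.03 to 1.89 for *Wfdc21*, -1.15 to 2.00 for *Mmp8*, -0.53 to 3.63 for *Stfa2l1* and -0.79 to 2.52 for *G0s2*, with the low end without hucMSC-Exo 2 and *G0s2* at -0.27 without Control 1. In neutrophils it was -1.34 (without hucMSC-Exo 2) to 0.86 for *Mmp8*, -0.93 to 0.068 (without hucMSC-Exo 1) for *Mmp9* and -0.41 (without Control 1) to 1.38 for *G0s2*. In monocytes it was -0.76 to 1.13 (without Control 2) for *Mmp8*, with 0.12 without hucMSC-Exo 1. In macrophages it was -0.27 (without hucMSC-Exo 2) to 1.04 for *S100a8* and -0.94 to 1.88 (without Control 2) for *Mmp9*, with 0.20 without hucMSC-Exo 1. Between macrophages and T cells it was -0.084 (without hucMSC-Exo 2) to 0.78 for *S100a8* and -1.32 (without hucMSC-Exo 2, called lower with an edgeR adjusted p of 0.0212) to 0.33 (without Control 2) for *S100a9*. Without doublets, *S100a8* was at -0.075 in monocytes and -0.37 in macrophages. With Leiden clusters, *Mmp8* in monocytes was at 0.049, *S100a8*, *S100a9* and *Mmp9* in macrophages were at -0.997, -1.12 and 1.68, and *S100a9* between macrophages and T cells was at 0.77. With the gate of 2 markers these 5 values were 0.090, -0.46, -0.28, 0.88 and 0.083, and with the gate without skin lists *Mmp9* in macrophages was at 2.04.

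Without thinning, 17 in place of 10 of the 21 pairs lay above the product in both libraries. The neutrophil share of *S100a8* UMIs was 84.5%, against 97.0% with the gate without skin lists and 98.4% with Leiden clusters, both added after the data were seen.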
